A study of Mus musculus with 15 samples.

Results

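Toll-like receptors and their partners were examined in the cecal transcriptome of mice whose gut microbes had been depleted with antibiotics. The group was chosen by name and holds 10 genes of the 45808 in the deposited table, namely the receptors Tlr1, Tlr2, Tlr3, Tlr4, Tlr5, Tlr7 and Tlr9, the lipopolysaccharide co-receptors Cd14 and Ly96, and the shared adaptor Myd88. All 10 had a row in the table and were above 0 in at least 1 mouse. The animals were C57BL/6 mice, described in the labels as wild type and aged 20 weeks, although the study's text gives a younger age at the start of gavage, which 30 days of treatment would not bring to 20 weeks. In the antibiotic-induced microbiome depletion (AIMD) group, 7 mice had received ampicillin, vancomycin, metronidazole and neomycin with the antifungal amphotericin B by oral gavage for 30 days, and 8 vehicle-treated mice had received water in the same way. Whole ceca were emptied and frozen, so the RNA came from a mixture of epithelium, immune cells and stroma, and a difference in the number of cells of a type cannot be told apart from a difference in RNA per cell. Levels are given as FPKM, reads per gene after adjustment for gene length and for a depth value of each mouse, which was not its number of reads on genes.

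Toll-like receptors detect molecules that are shared by many microbes. Those on the cell surface bind parts of the bacterial envelope and flagella, and those in endosomes bind nucleic acids. All of them except Tlr3 can signal through Myd88, which recruits kinases of the IRAK family and leads to NF-κB, and in the gut lining this signalling shapes antimicrobial defence, barrier repair and tolerance of the resident bacteria. Tlr4 binds lipopolysaccharide of Gram-negative bacteria only in complex with Ly96 (MD-2), and Cd14 hands lipopolysaccharide to that complex.

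Reads behind these values were recovered from the FPKM, and they limit the precision of the rare receptors. Between 8679679 and 18108586 reads per AIMD mouse and between 4372423 and 14405949 per vehicle-treated mouse lay on genes, and the mean depth differed between the groups (two-sided exact permutation test, p = 0.0345). For each gene, log2(FPKM + 0.5) was compared between the groups with limma, and a gene was called when its Benjamini–Hochberg adjusted p was under 0.05. Of the 11971 genes with enough expression to be tested, 36.0% were called. The epithelial markers summed to between 22790 and 36310 FPKM in every mouse, which matches the labelled tissue. In a score of 11 circadian clock genes the mice fell into separate clusters, a low one with 3 AIMD and 4 vehicle-treated mice and a high one with 4 of each, and the time of sacrifice of each mouse was not given in the sources used here.

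Tlr1 and Tlr6, adjacent genes on the minus strand of chromosome 5, are identical over part of their coding sequence, and this stretch is shown because it decides which reads of 50 bases can be told apart. Their coding sequences were 74.81% identical when aligned, and the longest run in common was 229 bases, at chr5:64925537-64925765 in Tlr1 and chr5:64953828-64954056 in Tlr6 (GRCm38, GENCODE M21 transcripts). The run is given first, in lower case throughout because every base of it is shared.
Tlr1 and Tlr6, common run: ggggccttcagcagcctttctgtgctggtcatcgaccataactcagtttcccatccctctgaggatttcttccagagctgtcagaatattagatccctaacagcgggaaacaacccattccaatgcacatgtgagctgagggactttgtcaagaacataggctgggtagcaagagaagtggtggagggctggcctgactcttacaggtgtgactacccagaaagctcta
Upstream of it the genes differ at a single base in the next 40, which is in capitals in the lines that follow, each holding the last 40 bases before the run and its first 40.
Tlr1: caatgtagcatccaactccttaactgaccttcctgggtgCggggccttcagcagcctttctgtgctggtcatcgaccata
Tlr6: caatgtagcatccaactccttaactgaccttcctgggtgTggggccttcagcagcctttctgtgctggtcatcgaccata
Of all stretches of 50 bases in Tlr1 transcripts, 15.37% also occur in another gene, mainly Tlr6, and 12.32% of those in Tlr6 also occur in other genes, mainly Tlr1. How such reads were counted is not given in the sources used here. For Tlr4 the share was 0.02%, and for the 8 other members it was 0. Exons of Tlr3 and Myd88 overlap the antisense genes Gm45542 and Acaa1a, and whether reads were counted by strand was not stated.

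The sequence before the first annotated start of Tlr1 and Tlr2 is shown because these receptors pair on the cell surface and were both abundant in the cecum. Promoter sequence was taken from RefSeq (GRCm38), where 6 of the 10 members matched and 4 had bases before their first annotated start. Both strands were searched for GAGGAAGT, a form of the site of the myeloid factor PU.1, and for the NF-κB consensus site, and matches are in capitals. The Tlr1 stretch lies at chr5:64933564-64933808 on the minus strand and the Tlr2 stretch at chr3:83841768-83841858 on the minus strand.
Tlr1: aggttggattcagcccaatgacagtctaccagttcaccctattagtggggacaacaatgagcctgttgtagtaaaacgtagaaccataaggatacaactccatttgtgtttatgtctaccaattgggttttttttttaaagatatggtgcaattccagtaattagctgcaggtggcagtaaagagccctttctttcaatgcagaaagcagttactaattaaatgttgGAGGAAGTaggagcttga
Tlr2: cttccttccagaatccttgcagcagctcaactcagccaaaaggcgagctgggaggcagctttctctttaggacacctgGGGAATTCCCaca
Tlr1 held 1 match to the PU.1 letters, as did 2.36% of 32851 promoter windows of the same length. Tlr2 held 1 match to the NF-κB letters, as did 1.24% of windows of its length. The matches overlap no other match of either motif, and the upstream stretches of Tlr5 and Tlr9 held none. No promoter sequence was matched for Tlr4, Tlr7, Cd14 and Ly96.

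In level, the members spread from about 35 FPKM to a few reads per mouse. Tlr1, which works in pairs with Tlr2, had the highest level of the 10 members in every mouse of both groups. In the vehicle group its median was 34.97 FPKM. Then came Ly96 (median 15 FPKM), Myd88 (13.99), Tlr3 (10.3), Tlr2 (10.1) and Cd14 (9.91). These 5 overlapped in range from one to the next, so that, for example, Ly96 lay above Myd88 in 4 of 8 mice and Tlr2 above Cd14 in 4 of 8. Below a wide gap followed Tlr4 (median 0.606 FPKM), Tlr7 (0.367), Tlr5 (0.199) and Tlr9, which had a median of 0. In AIMD mice the order at the top was Tlr1 (median 28.1 FPKM), Myd88 (13.5), Ly96 (12.9), Cd14 (10.4), Tlr3 (8.95) and Tlr2 (7.97), again with ranges that overlapped from Myd88 to Tlr2. Tlr4 stood alone between these and the rare receptors, at a median of 2.48 FPKM, and its range met neither that of Tlr2 above nor that of Tlr5 below.

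**Figure D1:**
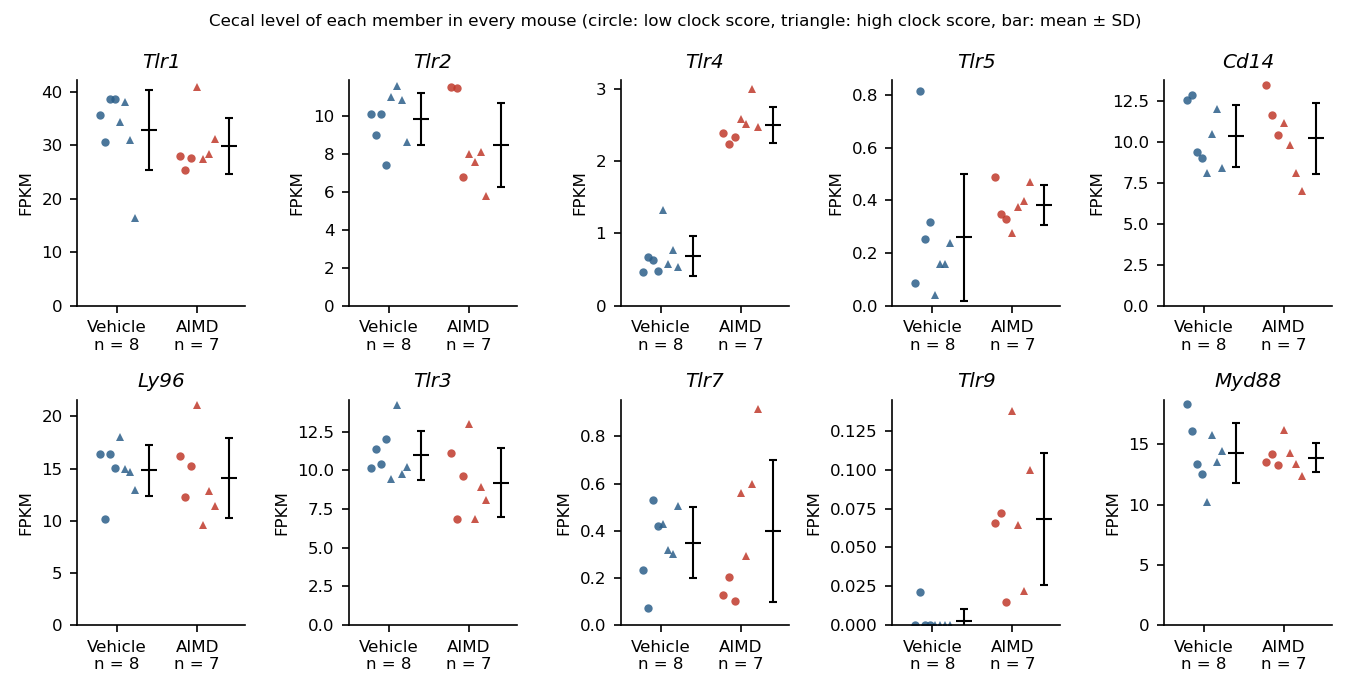
FPKM of each of the 10 members (vertical axis, linear and starting at 0, 1 panel per gene) in every vehicle-treated mouse (blue, n = 8) and AIMD mouse (red, n = 7), with circles for mice of the low clock cluster, triangles for the high cluster and black bars for the mean ± SD. The groups are apart for Tlr4, where AIMD mice lay between 2.24 and 3.00 and vehicle-treated mice between 0.465 and 1.32, and they overlap for the 9 other members.

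Tlr4 was the single member called, 1 of the 7 that passed the filter on low values, against 36.0% of all tested genes called. The study had itself reported Tlr4 as significantly higher in AIMD mice from this cecal sequencing. Its model also included the time of sacrifice. The gene lies on the plus strand of chromosome 4, from 66827584 to 66930284. Its FPKM in AIMD mice was 2.24 at the lowest, 2.48 at the median and 3.00 at the highest. In the vehicle group it was 0.465 at the lowest, 0.606 at the median and 1.32 at the highest. Every AIMD mouse thus lay above every vehicle-treated mouse, a separation that 8.57% of tested genes showed in either direction. The means were 2.51 ± 0.247 FPKM (SD, n = 7) and 0.684 ± 0.278 FPKM (SD, n = 8), a ratio of 3.67. On the log2(FPKM + 0.5) scale, which understates the change of a low gene, Tlr4 rose by 1.37 (SE, standard error, 0.13, 95% interval 1.09 to 1.64, limma adjusted p = 1.39e-06, two-sided exact permutation test p = 0.000311). A rise of at least this size was called for 1.45% of tested genes, and a change of at least 1 on this scale in either direction for 6.39%. With voom on the recovered reads the estimate was 1.95 (SE 0.18, limma adjusted p = 3.19e-07).

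The counts of reads behind Tlr4 were small in the vehicle group. They ranged from 120 to 246 in AIMD mice and from 13 to 51 in the vehicle group, and at the vehicle median of 29 reads counting error alone is 18.6% of the value. In all, 1314 reads lay on Tlr4 in AIMD mice and 235 in the vehicle group, and after division by all reads on genes the rate was 4.37 times as high in the AIMD group, with a 95% exact interval of 3.799 to 5.04 that covers counting error only. The depth behind the FPKM was another divisor, 5162136 against 6486317 reads on genes in vehicle replicate 5 and 13139115 against 11244643 in AIMD replicate 6. This ratio is thus not on the scale of the 3.67 between the mean FPKM. The shallowest AIMD library, at 8679679 reads, still held 120 Tlr4 reads, and the deepest vehicle library, at 14405949 reads, held 51. In the vehicle group, replicate 5 had the highest FPKM, and without this mouse the log2 fold change was 1.46 (limma adjusted p = 1.28e-07).

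**Figure D2:**
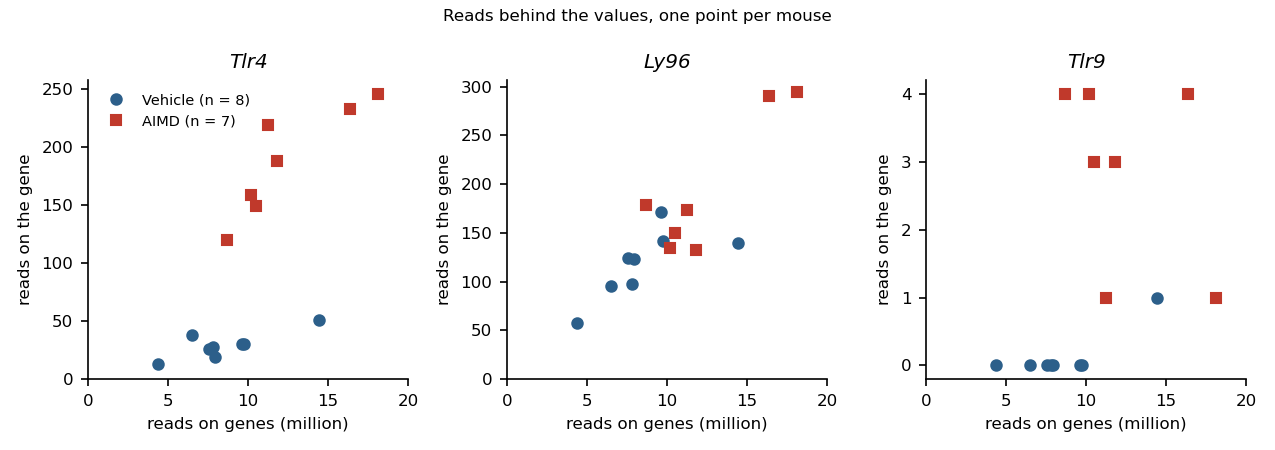
Recovered reads on Tlr4, Ly96 and Tlr9 (vertical axes) against all reads on genes (horizontal axis), with 1 point per mouse, squares for AIMD (n = 7) and circles for vehicle (n = 8). AIMD mice held 120 to 246 Tlr4 reads and vehicle-treated mice 13 to 51, while for Ly96 the points of both groups rise together with depth, and Tlr9 never exceeded 4 reads.

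The partners of Tlr4 in the lipopolysaccharide receptor were not called. Ly96, the secreted protein that holds the lipid in its pocket, had an FPKM of 9.63 at the lowest, 12.9 at the median and 21.1 at the highest in AIMD mice. In the vehicle group it had 10.1, 15 and 18.0. The ranges lay almost on top of each other, and the log2 difference was -0.09 (95% interval -0.42 to 0.23, limma adjusted p = 0.670). Cd14, the anchored co-receptor that passes lipopolysaccharide on, ranged from 7.01 over a median of 10.4 to 13.5 FPKM in AIMD mice. Its range in the vehicle group was 8.13 to 12.8, with a median of 9.91. Its log2 difference was -0.02 (95% interval -0.33 to 0.28, limma adjusted p = 0.912). The intervals of both genes exclude a change as large as that of Tlr4 in either direction.

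The level of Tlr4 relative to its partners therefore differed between the groups. Per mouse, Tlr4 amounted to 12.3% to 26.2% of the Ly96 level in AIMD mice and to 2.84% to 7.35% in the vehicle group. Against Cd14 it amounted to 17.8% to 36.9% and to 3.71% to 16.3%, and against Myd88 to 15.8% to 22.4% and to 2.54% to 12.9%. In other words, there were 3.82 to 8.12 FPKM of Ly96 for each FPKM of Tlr4 in AIMD mice, and 13.6 to 35.2 in the vehicle group. Over all 6 other tested members, the ratio of Tlr4 to the other member was between 3.93 and 4.68 times as high in AIMD mice on the geometric mean. The groups did not overlap for any of the 6 ratios (two-sided exact permutation tests, p between 0.000155 and 0.000311, with an adjusted p of 0.000311 for each over the 6 ratios). These ratios share the Tlr4 values and were chosen after the values had been seen.

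**Figure D3:**
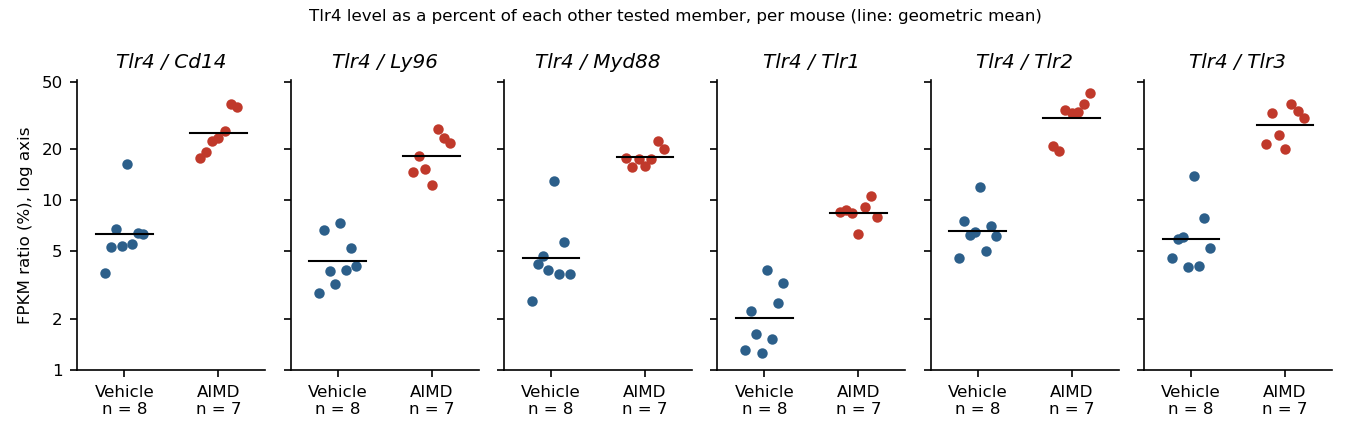
Tlr4 FPKM as a percent of the FPKM of Cd14, Ly96, Myd88, Tlr1, Tlr2 and Tlr3 (vertical axis, logarithmic) in each vehicle-treated mouse (blue, n = 8) and AIMD mouse (red, n = 7), with a line at the geometric mean. For Ly96 the AIMD mice lie between 12.3% and 26.2% and the vehicle-treated mice between 2.84% and 7.35%, and no panel has overlapping groups.

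The other surface receptors were not called. Tlr1, which recognises triacylated lipopeptides together with Tlr2, had 25.5 at the lowest, 28.1 at the median and 41.0 FPKM at the highest in AIMD mice. The values of the vehicle group were 16.3, 34.97 and 38.6 FPKM. A single mouse of each group lay far from the rest, AIMD replicate 4 above and vehicle replicate 8 below, and vehicle replicate 8 was also the shallowest library. The log2 difference was -0.11 (95% interval -0.46 to 0.24, limma adjusted p = 0.638), and -0.25 without vehicle replicate 8 (limma adjusted p = 0.0949). Tlr2, the common partner of Tlr1 and Tlr6, ranged from 5.79 to 11.5 FPKM with a median of 7.97 in AIMD mice, and from 7.42 to 11.6 with a median of 10.1 in the vehicle group. Its log2 difference was -0.23 (95% interval -0.54 to 0.08, limma adjusted p = 0.227).

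Within the Tlr1 and Tlr2 pair, Tlr1 had between 2.22 and 5.39 times the FPKM of Tlr2 in AIMD mice and between 1.89 and 5.21 times in the vehicle group (two-sided exact permutation test of the log2 ratio, p = 0.574). Tlr6, which is no member and recognises diacylated lipopeptides with Tlr2, stayed at 0.154 to 0.200 FPKM in AIMD mice and 0.123 to 0.416 in the vehicle group (p = 0.245 by the exact permutation test). Tlr1 thus had 137 to 254 and 82.4 to 267 times the level of Tlr6, a comparison that the shared stretch leaves uncertain.

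Tlr5, the receptor of bacterial flagellin, was too low for the test across genes. AIMD mice had 0.276 at the lowest, 0.373 at the median and 0.490 FPKM at the highest, from 11 to 41 reads each. Vehicle-treated mice had 0.0404, 0.199 and 0.819 FPKM, from 1 to 53 reads. Vehicle replicate 2, the deepest vehicle library, lay above all mice of both groups, and the 7 others spread from 0.0404 to 0.319. The two-sided exact permutation test gave p = 0.111 for a log2 difference of 0.27, and p = 0.00117 for 0.39 without that mouse. The p-value thus depended on 1 library, and an exact rank-sum test on all mice gave p = 0.0205.

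Among the endosomal receptors, Tlr3 was well expressed and Tlr7 and Tlr9 were rare. Tlr3, which binds double-stranded RNA and signals through Ticam1 in place of Myd88, had 6.86 at the lowest, 8.95 at the median and 13.0 FPKM at the highest in AIMD mice. For the vehicle group they were 9.47, 10.3 and 14.2 FPKM. In 4 of 7 AIMD mice the value lay below every vehicle-treated mouse, but the log2 difference of -0.26 was not called (95% interval -0.55 to 0.03, limma adjusted p = 0.149). Without AIMD replicate 4, the highest mouse of its group, it was -0.34 and passed the threshold (limma adjusted p = 0.0474).

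Tlr7, a receptor of single-stranded RNA in dendritic cells, macrophages and B cells, spread widely in both groups. AIMD mice had 0.103 at the lowest, 0.292 at the median and 0.914 FPKM at the highest, and vehicle-treated mice had 0.0725, 0.367 and 0.529 (two-sided exact permutation test, p = 0.847). In the AIMD group, the 4 mice of the high clock cluster lay between 0.292 and 0.914 and the 3 of the low cluster between 0.103 and 0.204. In the vehicle group the clusters overlapped, at 0.299 to 0.504 and 0.0725 to 0.529.

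Tlr9, which binds unmethylated CpG DNA of bacteria and viruses, was close to the limit of detection. All 7 AIMD mice had a read on it, between 1 and 4 each, and only vehicle replicate 2 of the 8 vehicle-treated mice had any, with 1 read. In FPKM this was 0.0151 at the lowest, 0.0658 at the median and 0.138 at the highest in AIMD mice, with 6 of 7 above the highest vehicle-treated mouse. The log2 difference was 0.17 (two-sided exact permutation test, p = 0.000311). In the test without a filter on low values, in which 17.4% of 24279 genes were called, Tlr9 was called with a limma adjusted p of 0.00701. The 20 reads of the AIMD group against 1 read of the vehicle group gave a ratio of rates of 15.6, with a 95% exact interval of 2.499 to 648 for counting error only. AIMD libraries were deeper on average, and the deepest vehicle library was the one with the read.

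The 5 mouse receptors outside the members, which the filter removed, were counted in the same way. Tlr13, a sensor of bacterial ribosomal RNA in phagocytes, had 128 reads in AIMD mice and 26 in the vehicle group, or 0.129 to 0.894 FPKM against 0 to 0.237 (two-sided exact permutation test, p = 0.00311, and limma adjusted p = 0.0499 with no filter). Tlr8 had 6 reads in AIMD mice and none in the vehicle group, and the 95% exact interval of the ratio of its rates starts at 0.920, so equal rates lie inside it (p = 0.0256 by the exact permutation test over mice). Tlr11 had 21 reads against 5 (p = 0.0510), and Tlr12, which like Tlr11 detects profilin of parasites, had 119 against 59 (p = 0.150, both by the exact permutation test). These exact p-values are not adjusted for the 15 receptors and partners tested so.

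Myd88, the adaptor that most of these receptors share, was not called. AIMD mice had 12.4 at the lowest, 13.5 at the median and 16.2 FPKM at the highest, and vehicle-treated mice had 10.2, 13.99 and 18.3. All AIMD values lay inside the vehicle range. The log2 difference was -0.02 (95% interval -0.27 to 0.22, limma adjusted p = 0.889). The members' median log2 difference over the 7 tested was -0.09, beside 0.01 over all tested genes.

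**Figure D4:**
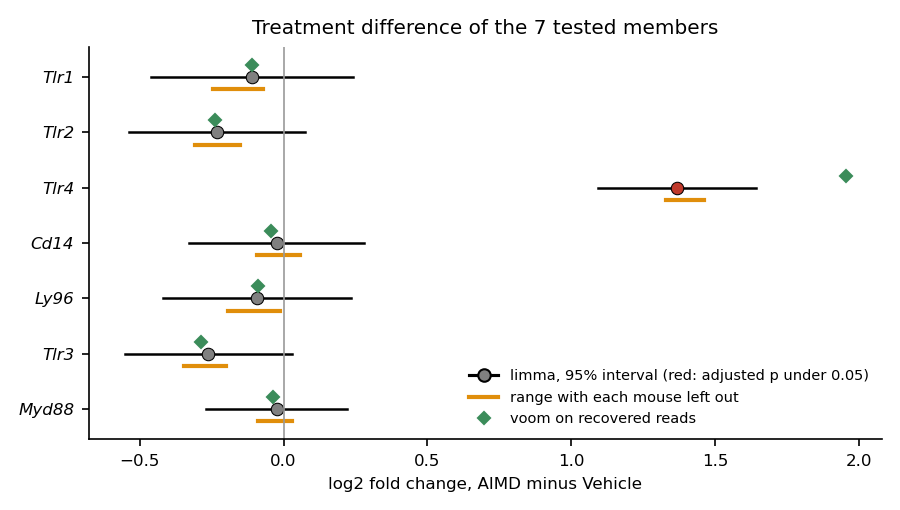
Log2 fold change from vehicle to AIMD (horizontal axis) of the 7 tested members by limma with its 95% interval (black), the range of the estimate with each mouse left out in turn (orange) and the estimate from voom on the recovered reads (green diamond). Tlr4 stands at 1.37 by limma and 1.95 by voom, and the 6 other members lie between -0.26 and -0.02 with intervals that include 0.

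Tlr4 was higher in AIMD mice within each clock cluster. In the low cluster, 3 AIMD mice had 2.24 to 2.40 FPKM and 4 vehicle-treated mice 0.465 to 0.679, a log2 difference of 1.41. In the high cluster, 4 AIMD mice had 2.48 to 3.00 FPKM and 4 vehicle-treated mice 0.535 to 1.32, a log2 difference of 1.31. No tested member was called for the clock score itself, beside 10.6% of all tested genes, and the lowest adjusted p was 0.182 for Cd14. With so few mice, 29.7% of tested genes had groups that did not overlap in the low cluster and 25.4% in the high cluster. Besides Tlr4, which was apart in both, 4 members were apart in a single cluster. For Tlr1 this was the low cluster, with 25.5 to 28.1 FPKM in AIMD and 30.5 to 38.6 in the vehicle group, while in the high cluster the values were 27.4 to 41.0 and 16.3 to 38.1. For Tlr2 it was the high cluster, with 5.79 to 8.11 and 8.64 to 11.6, against 6.80 to 11.5 and 7.42 to 10.1 in the low cluster. Tlr5 and Tlr9, both below the filter, were apart in the high cluster, Tlr5 at 0.276 to 0.471 in AIMD mice and 0.0404 to 0.239 FPKM in the vehicle group. Whether the treatment difference depends on the cluster was not tested.

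Around the members, 91 other genes of the pathway passed the filter, out of 112 listed, and 24 were called higher and 17 lower in AIMD mice, or 41 in all. Among all tested genes, 19.4% were called higher and 16.6% lower. The shares of the pathway genes lay a little above these in the lower direction and further above them in the higher one. The lists were tested by no set test.

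Of the genes for ligand delivery and trafficking, 2 rose, 4 fell and 4 were not called among 10 tested. Ctsl, a lysosomal protease that cuts endosomal receptors into their active form, fell by 1.15 on the log2 scale (SE 0.15, limma adjusted p = 3.07e-05), from 123 to 256 FPKM in the vehicle group to 71.0 to 91.5 in AIMD mice, with no overlap. Legumain (Lgmn), another such protease, fell by 1.16 (limma adjusted p = 0.000411). Unc93b1, the escort of the endosomal receptors, fell by 0.81 (limma adjusted p = 0.00494), with 2.67 to 4.65 FPKM in AIMD and 3.87 to 10.3 in the vehicle group. Lrrc59, which helps load these receptors for export, rose by 1.09 (limma adjusted p = 0.000248). Exons of Ctsl and Lrrc59 overlap antisense genes, and 6.46% of the 50-base stretches of Ctsl also occur in other genes.

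Among 18 tested adaptors and kinases, 6 rose, 3 fell and 9 were not called. Ripk1, a kinase that joins the Ticam1 arm to NF-κB and to cell death, rose by 1.70 (SE 0.21, limma adjusted p = 1.69e-05), from at most 0.807 FPKM in the vehicle group to at least 1.42 in AIMD mice. Map3k7, the kinase that activates the IκB kinases, rose by 0.45 (limma adjusted p = 0.00203) and its groups did not overlap, at 7.02 to 8.70 against 4.68 to 6.91 FPKM. Tbk1, which phosphorylates interferon regulatory factors, rose by 0.69, and its limma adjusted p was 0.00414. Tab2, a partner of Map3k7, fell by 0.50 (limma adjusted p = 0.00820). Tirap, the bridge from Tlr2 and Tlr4 to Myd88, rose by 0.52 (limma adjusted p = 0.0252), and without AIMD replicate 1 its adjusted p was 0.0569. Exons of Ripk1 and Tirap overlap antisense genes.

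The transcription factors counted 3 that rose, 2 that fell and 7 not called among 12. Nfkb1, the precursor of the p50 subunit, rose by 0.94 (limma adjusted p = 0.000140), with 4.84 to 6.05 FPKM in AIMD mice and 1.43 to 4.29 in the vehicle group. Atf3, a stress-induced repressor of inflammatory genes, rose by 0.99 (limma adjusted p = 0.000175). Irf5, which carries Myd88 signals to cytokine genes, fell by 0.78 (limma adjusted p = 0.0100), and Jun, a subunit of AP-1, fell by 0.55 (limma adjusted p = 0.00815). Exons of both overlap antisense genes.

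Inhibitors moved both ways, with 4 higher, 3 lower and 9 not called among 16 tested. Tnfaip3, a ubiquitin-editing enzyme that shuts off NF-κB signalling, rose by 1.67 (SE 0.16, limma adjusted p = 1.56e-06), from 0.584 to 1.85 FPKM in the vehicle group to 3.42 to 6.38 in AIMD mice. Il1rl1, the receptor of interleukin-33, rose by 0.94 (limma adjusted p = 0.000732). Socs1, which restrains cytokine and receptor signalling, fell by 0.62 (limma adjusted p = 0.00742). Ly86, the relative of Ly96 that partners Cd180, fell by 0.74, and its limma adjusted p of 0.0430 rose above 0.05 when any of 12 of the 15 mice was left out.

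Of 18 tested genes that Myd88 and NF-κB are known to induce, 4 rose, 3 fell and 11 were not called. Saa3, an acute-phase protein of epithelium and macrophages, rose by 1.74 (SE 0.21, limma adjusted p = 1.69e-05), from 60.6 to 186 FPKM to 286 to 531. Saa1 rose by 1.17 (limma adjusted p = 0.00288), although 31.48% of its stretches of 50 bases also occur in other genes, mainly Saa2. Ccl5, a chemokine of T cells and macrophages, rose by 1.34 (limma adjusted p = 0.000735), and Ptgs2, the inducible cyclooxygenase, fell by 0.60 (limma adjusted p = 0.0128).

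Other pattern receptors counted 5 higher, 2 lower and 10 not called among 17 tested. Naip2, which senses a bacterial secretion system, rose by 0.99 (limma adjusted p = 1.14e-05), with 11 to 16.2 FPKM in AIMD and 5.17 to 7.88 in the vehicle group, and 19.12% of its stretches occur in other genes, mainly Naip1. Its partner Nlrc4 rose by 0.89 (limma adjusted p = 0.000172) and the DNA sensor Aim2 by 0.68 (limma adjusted p = 0.000210), both without overlap between the groups. Ifih1, a sensor of viral RNA, rose by 0.75 (limma adjusted p = 0.0172). Nod2, the receptor of bacterial muramyl dipeptide, fell by 0.75 (limma adjusted p = 0.00165), with 0.225 to 0.599 FPKM against 0.456 to 1.55.

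**Figure D5:**
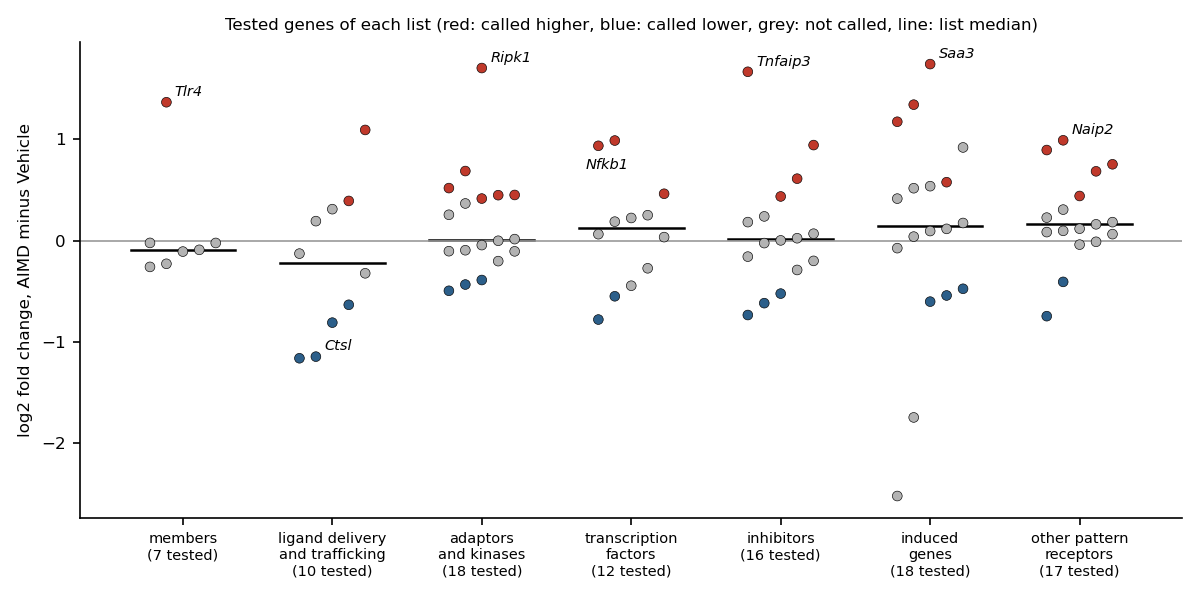
Log2 fold change from vehicle to AIMD (vertical axis) of every tested gene in the member list and in 6 other lists of the pathway (horizontal axis), red where called higher, blue where called lower and grey where not called, with a line at the list median. Tlr4 at 1.37 stands apart from the 6 other members, which lie between -0.26 and -0.02, and each other list holds genes called in both directions, from Saa3 at 1.74 to Lgmn at -1.16.

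Markers of cells that carry these receptors differed between the groups as well. The 14 macrophage markers summed to 81.9 to 257 FPKM in AIMD mice and 57.9 to 112 in the vehicle group (two-sided exact permutation test of the log2 sum, p = 0.00420). Most of this sum was Lyz2, with means of 113 FPKM in AIMD mice and 43.9 in the vehicle group, so the p-value speaks mainly of that gene. None of the 14 was at 0 in all mice, and 4 of the 11 tested were called, all higher, namely Csf1r, Cd68, C1qa and Lyz2. With the mean log2 level of the 14 macrophage markers as a covariate, Tlr4 rose by 1.32 (SE 0.14, limma adjusted p = 6.54e-06). The pathway genes called went from 41 to 33, while the genes called among all 11971 tested went from 4315 to 4634. The covariate averages markers that went in both directions and does not measure the number of macrophages. It was chosen after the values had been seen.

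The 8 B-cell markers summed to 7.56 to 59.2 FPKM in AIMD mice and 32.3 to 86.5 in the vehicle group (exact permutation test, p = 0.00824). All 8 were tested and 3 were called, all lower, among them Cd79b and Blk, beside 36.0% of all tested genes called. The 8 neutrophil markers summed to 1.01 to 30.2 FPKM and 0.306 to 1.38 (exact permutation test, p = 0.00435). The 30.2 was AIMD replicate 4 alone, also the highest AIMD mouse in Tlr1 and Tlr3, and the next was 3.82 (exact permutation test without this mouse, p = 0.00999). Ly6g, the single neutrophil marker that passed the filter, was 24.7 FPKM at its highest and was called higher in AIMD mice (limma adjusted p = 0.0324), with Elane at 0 in every mouse and the medians of Mpo, Cxcr2 and Retnlg at 0 in both groups. Stroma and endothelium markers summed to 82.7 to 279 FPKM in AIMD mice and 159 to 1045 in the vehicle group (exact permutation test, p = 0.0260). None of these 10 markers was called, and most of the sum was Acta2, a smooth muscle gene (means 109 and 227 FPKM). The 1045 was vehicle replicate 8 alone, the shallow library with the lowest Tlr1, and the 7 others reached at most 400.1 (exact permutation test without this mouse, p = 0.0466). Epithelial markers summed to 25980 to 36310 and 22790 to 31460 FPKM (exact permutation test, p = 0.0186), of which most was Car1, a carbonic anhydrase that was not called (means 26470 and 22760 FPKM). Within that list Vil1 and Krt8 rose by 0.42 and 0.69, and Krt18 and Muc2 fell by 0.56 and 0.77 (limma adjusted p between 0.00569 and 0.0428). The sums without 1 mouse were chosen after the values had been seen. For the sums of 9 dendritic and 8 T-cell markers the exact permutation tests gave p = 0.690 and p = 0.744. Even so, 1 of 2 tested dendritic genes and 1 of 7 tested T-cell genes were called, each lower in AIMD mice. The part of these cells in the differences of Tlr4, Tlr9, Tlr13 and the pathway genes was not tested.

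Within the groups, the genes most like Tlr4 over the 15 mice, after centring on the group means, were Neurod1, a transcription factor of enteroendocrine cells (Pearson r = 0.92), the protease inhibitor Serpinb1a (r = 0.87) and the caspase inhibitor Xiap (r = 0.86). Vehicle replicate 5 had the highest vehicle value of all 3 genes and of Tlr4, and without this mouse the coefficients over 14 mice were 0.72, 0.69 and 0.58. Serpinb1a and Xiap were also called higher in AIMD mice, at log2 fold changes of 1.42 and 0.68, whereas Neurod1 had a log2 difference of 0.04 (limma adjusted p = 0.889). Among the members themselves, the highest coefficients were 0.61 for Cd14 and Myd88, 0.57 for Tlr2 and Cd14 and 0.56 for Tlr3 and Ly96, and the lowest was -0.62 for Tlr4 and Myd88. Vehicle replicate 5, with the highest vehicle Tlr4, also had the lowest Myd88 of all mice (10.2 FPKM), and the coefficient without it was not computed. Tlr4 and Ly96 had a coefficient of 0.16. These are descriptions of values that share libraries and depth.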

How the data were processed

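RNA from the ceca of 15 mice was poly-A selected and sequenced with a stranded kit and 50-base single reads. Per the labels' processing notes, the authors used STAR, featureCounts, DESeq2 and the GRCm38 build, and they deposited 1 FPKM value per gene and mouse. Of 45808 rows, 4 with a repeated symbol were left out.

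Size factors by median of ratios, from 13594 genes, were 1.01 in every mouse. After division by them, log2(FPKM + 0.5) was fitted with limma 3.58.1 (lmFit and eBayes with trend, R 4.3.3) for genes that reached 0.5 FPKM in 7 or more mice. p-values were two-sided and adjusted by Benjamini–Hochberg at 0.05. Levels in the text are the deposited FPKM. Members that failed the filter were tested by exact permutation over all 6435 splits of the mice, whose smallest p is 0.000155. Of 24279 genes above 0, 16548 gave whole reads, within 0.02 reads, when FPKM was divided by the worth of 1 read at the annotated length. For the 7731 others that worth was searched for until every mouse gave whole reads. Whole reads were thus no check for these genes, and their counts may be off by a common factor. The recovered reads were used for voom, with depths that differed by up to 4.14 times. Rates of reads were divided by all reads on genes, not by the depth behind the FPKM. Intervals on reads are exact and cover counting error only. Replicates are separate mice, and which of them shared a cage or a lane is not given in the sources used here.

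The members and lists were chosen with earlier results of these data known. All 10 members and the 5 other mouse Toll-like receptors are named. From each other list come the genes called whose groups do not overlap and up to 4 called with the largest change, and for likeness the 3 genes with the highest centred correlation. Alternatives were other pseudocounts, filters, scalings and tests, a clock score covariate, a replicate block and each mouse left out in turn. The methods were tested on simulated data with the same dispersion for every gene and with changes only in genes above a minimum level. The simulation therefore does not speak to changes in low genes such as Tlr5, Tlr7 and Tlr9. Permutations and counts were run in Python 3.11.15 (pandas 2.3.3, numpy 2.4.6, scipy 1.17.1), sequences were read with biopython 1.88 and figures drawn with matplotlib 3.10.9. Positions are from GENCODE M21. The result of 1 cell type marker is not reported here.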

Additional observations from a re-analysis of the deposited data

Results flagged for a closer look

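In each member, the highest and the lowest mouse of each group were compared with the rest by Dixon's test, over 20 groups of 7 or 8 mice, in which chance alone would mark about 1 in 20. Values far from their group were found in 5. Tlr4 in vehicle replicate 5 was 1.32 FPKM, and the 7 other vehicle-treated mice lay between 0.465 and 0.770. Tlr1 in AIMD replicate 4 was 41.0 FPKM, above 25.5 to 31.2 in the rest of its group. Tlr1 in vehicle replicate 8 was 16.3 FPKM, below 30.5 to 38.6 in the rest. Tlr5 in vehicle replicate 2 was 0.819 FPKM, above 0.0404 to 0.319. Tlr9 in vehicle replicate 2 was 0.0213 FPKM, which is 1 read. All other vehicle-treated mice were at 0, where any single read passes the test, so this value says nothing and is not to be set against the chance rate.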

How the results depend on the processing

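Tlr4 was called under each of the 27 alternatives, and its log2 fold change ranged from 1.07 with a pseudocount of 1 to 1.95 with voom on recovered reads. With each mouse left out in turn it lay between 1.33 and 1.46. The number of members called was 1 in all alternatives except 2 with no filter, where Tlr9 was added, and 1 to 2 with each mouse left out, where Tlr3 was added without AIMD replicate 4. Tlr1, Tlr2, Cd14, Ly96 and Myd88 were called in none of these, and the sign of the differences of Cd14, Myd88 and Tlr7 depended on the setting. The pathway genes called numbered 33 to 43 over the other settings and 33 to 42 with each mouse left out. Of the 41 called, 27 were called under every alternative run for them and 14 lost the call under at least 1, among the named genes Ly86, Tirap and Ifih1, the latter only with the macrophage covariate. The covariates for macrophage markers and for a clock score not centred within the groups were chosen after the data were seen. Replicate numbers do not pair the mice: same-numbered mice had correlations of deviations between -0.35 and 0.43, and only AIMD replicate 7 correlated best with its own number. With the replicate block, 1 member and 42 pathway genes were called and Tlr4 had a log2 fold change of 1.34 (limma adjusted p = 8.74e-05). Depth limits Tlr5, Tlr7 and Tlr9, for which vehicle libraries held at most 53, 19 and 1 reads.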
